A study of Mus musculus with 6 samples.

Results

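The nonclassical MHC class I genes of the mouse H2-Q and H2-T regions were followed in epithelial cells sorted from small intestines of C57BL/6 mice. The 10 genes H2-Q1, H2-Q2, H2-Q4, H2-Q6, H2-Q7, H2-Q10, H2-T3, H2-T10, H2-T23 and H2-T24 were taken by symbol from the 51912 genes in the deposited tables. All 10 were among the 13644 genes that passed a filter on low counts. RNA came from antigen-free (AF) mice, kept without foreign antigens of either microbes or diet, from germ-free (GF) mice, which had no microbiota, and from specific pathogen free (SPF) mice, which were free only of particular pathogens. There were 2 libraries a group, and the numbers in their titles name them: AF replicates 2 and 3, GF replicates 1 and 3, and SPF replicates 3 and 4. The sources used here give neither diets, ages nor the number of animals per library, and nothing says that libraries came from separate animals, so that p-values reflect the spread between these libraries alone, which may be technical.

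Class I molecules are a heavy chain that pairs with beta-2 microglobulin, the product of B2m, and most display peptides at the cell surface. The classical heavy chains H2-K1 and H2-D1 present peptides to CD8 T cells, whereas the nonclassical chains are generally less polymorphic and many have narrower roles. Qa-1, encoded by H2-T23, displays a leader peptide of other class I chains to the CD94-NKG2A receptor of natural killer cells and T cells. The thymus leukaemia antigen encoded by H2-T3 is known for its expression on intestinal epithelium and binds the CD8 alpha homodimer of intraepithelial lymphocytes. Qa-2, encoded by genes that include H2-Q6 and H2-Q7, is anchored to the membrane by a lipid. The H2-Q10 product is a soluble molecule best known as a secretion of the liver.

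The genes lie on chromosome 17 of GRCm38. On the plus strand stand H2-Q1 (chr17:35320405-35325099), H2-Q2 (chr17:35342242-35346762), H2-Q4 (chr17:35379617-35385290), H2-Q6 (chr17:35424850-35430055), H2-Q7 (chr17:35439155-35443773) and H2-Q10 (chr17:35470089-35474563). On the minus strand stand H2-T24 (chr17:36005695-36020560), H2-T23 (chr17:36029773-36032855), H2-T10 (chr17:36115876-36121465) and H2-T3 (chr17:36185572-36190287). GENCODE annotates 9 of them as protein coding and H2-T10 as a polymorphic pseudogene. H2-Q6 and H2-Q7 are 9099 bases apart, and H2-Q10 follows H2-Q7 after 26315 bases.

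The members are copies of one ancestral gene, which bears on how well reads can be assigned to each. A stretch of 60 coding bases that aligns without gaps is given for 5 of them, chosen for the Qa-2 pair, for H2-Q10, whose levels stand apart, and for H2-T3 and H2-T24, which have the most differences from H2-Q7. Capitals mark bases that differ from H2-Q7, on the coding strand.
H2-Q7: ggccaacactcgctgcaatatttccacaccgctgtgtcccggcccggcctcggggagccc
H2-Q6: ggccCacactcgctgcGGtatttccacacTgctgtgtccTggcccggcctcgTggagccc
H2-Q10: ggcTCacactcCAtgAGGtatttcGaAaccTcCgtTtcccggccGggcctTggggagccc
H2-T3: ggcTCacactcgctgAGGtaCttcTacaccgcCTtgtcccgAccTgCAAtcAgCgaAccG
H2-T24: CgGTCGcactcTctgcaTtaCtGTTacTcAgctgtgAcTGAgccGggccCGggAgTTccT
H2-Q6 differed from H2-Q7 at 6 of these bases, H2-Q10 at 14, H2-T3 at 18 and H2-T24 at 24, and the 5 members not printed differed at 7 to 10. Over the whole aligned coding sequence H2-Q7 was 95.4% identical to H2-Q6, 90.8% to H2-Q4, 87.68% to H2-Q10, 78.05% to H2-T3 and 69.38% to H2-T24.

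The sequences before the start sites of H2-Q4, H2-Q6, H2-Q7 and H2-Q10 are shown because 3 of these genes stood lower in AF than in SPF libraries and the fourth stood higher. RefSeq promoters on GRCm38.p6 were matched for 7 of the 10 members, and up to 250 bases upstream are printed for these 4, on the plus strand. Capitals mark matches to a kappaB site pattern and to an interferon-stimulated response element pattern, the second of which is matched here on the opposite strand.
H2-Q4 promoter, chr17:35379367-35379616: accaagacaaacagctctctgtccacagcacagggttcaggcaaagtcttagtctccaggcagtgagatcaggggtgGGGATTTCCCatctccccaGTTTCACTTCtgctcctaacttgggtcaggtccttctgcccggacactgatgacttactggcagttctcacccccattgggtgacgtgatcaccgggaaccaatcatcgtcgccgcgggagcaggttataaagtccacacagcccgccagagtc
H2-Q6 promoter, chr17:35424600-35424849: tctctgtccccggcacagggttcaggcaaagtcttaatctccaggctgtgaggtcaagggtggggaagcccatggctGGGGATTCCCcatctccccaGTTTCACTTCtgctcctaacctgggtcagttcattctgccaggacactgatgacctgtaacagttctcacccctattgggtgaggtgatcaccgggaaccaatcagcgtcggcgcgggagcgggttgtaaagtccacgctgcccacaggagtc
H2-Q7 promoter, chr17:35438905-35439154: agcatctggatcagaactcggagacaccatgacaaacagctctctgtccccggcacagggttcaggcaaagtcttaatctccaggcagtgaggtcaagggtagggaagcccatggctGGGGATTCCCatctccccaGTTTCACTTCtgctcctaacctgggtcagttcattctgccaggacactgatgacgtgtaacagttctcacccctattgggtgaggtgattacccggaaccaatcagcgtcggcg
H2-Q10 promoter, chr17:35469839-35470088: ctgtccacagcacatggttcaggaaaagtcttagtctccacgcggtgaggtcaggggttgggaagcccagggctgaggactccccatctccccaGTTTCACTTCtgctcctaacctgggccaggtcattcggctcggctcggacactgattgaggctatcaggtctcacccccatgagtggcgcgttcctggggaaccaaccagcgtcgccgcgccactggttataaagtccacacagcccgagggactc
Both strands were searched over 250 bases before and 50 after each RefSeq start. The interferon pattern was matched in all 4 of these promoters, by the same letters GTTTCACTTC, and it is held by 1.73% of 32851 mouse promoters of this length. The kappaB pattern, held by 1.75%, was matched in H2-Q4, H2-Q6 and H2-Q7, and its letters are not in the H2-Q10 window. Neither pattern was matched in the windows of H2-Q2, H2-T23 and H2-T3, which also had both AF libraries below both SPF libraries. The RefSeq starts of these genes lie inside the GENCODE genes. Their windows reached only 185, 96 and 114 bases before the earliest GENCODE start. In the 4 printed promoters the matches began 114 to 173 bases before it. That stretch was therefore largely or wholly outside the windows of H2-T23 and H2-T3, and absence there was not shown. The X2 pattern TGACGC, held by 7.4%, was matched in H2-Q4 alone, 30 to 35 bases after its start and outside the printed stretch. The gamma activated pattern TTCNNNGAA, held by 8.3%, was matched in none of the 7 promoters. The promoters of H2-Q6 and H2-Q7 were 97.62% identical where aligned, and that of H2-Q10 was 85.09% identical to H2-Q4, 81.22% to H2-Q6 and 82.04% to H2-Q7. A match is a description of letters and not evidence of binding.

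The libraries held 16109488 and 16873652 expected counts in AF, 19417054 and 16917319 in GF, and 17537299 and 17703560 in SPF, so that 1 count was worth 0.0365 to 0.0785 CPM (expected counts scaled to the TMM-normalised total of the library). Summed epithelial markers, among them Epcam and Vil1, stood at 7357 to 9462 CPM in all 6 libraries. Single markers in this sum varied more, with Krt19 at 181 to 1108 CPM and Krt18 at 122 to 474 CPM. In AF versus SPF 1 of the 8 was above without overlap, Krt18 at a log2 fold change of 1.16. Below without overlap were 2, Cdx2 at -0.57 and Epcam at -0.20, where 22.6% of all genes were. Other features also differed by library or group. The 13 lymphocyte markers summed to 19.0 and 13.9 CPM in AF, 37.3 CPM in GF replicate 1, 347 CPM in GF replicate 3, 205 CPM in SPF replicate 3 and 76.3 CPM in SPF replicate 4. SPF replicate 4 had 40.5 CPM of Paneth cell markers, against 876 to 5341 CPM in the 5 others, and 53322 CPM of brush border markers, against 19087 to 30567 CPM. Tuft cell markers summed to 208 and 199 CPM in AF, 98.2 and 137 CPM in GF, and 65.7 and 15.4 CPM in SPF libraries. In AF versus GF, AF versus SPF and GF versus SPF 6 of 6 genes were above without overlap. Of all genes 15.8%, 22% and 16.8% were, in the same order. The 6 enteroendocrine markers had a median log2 fold change of 1.61 in AF versus SPF, 1.81 in GF versus SPF and -0.13 in AF versus GF. Mitochondrial genes took 17.9 to 35.3% of the counts, the most in AF replicate 2. The 4 Y-linked genes summed to 53.1 to 59.7 CPM in AF, 52.2 to 61.7 CPM in GF and 0 in both SPF libraries. Xist, the X-inactivation RNA of females, stood at 0 and 0.178 CPM in AF, 0.109 CPM in GF replicate 1, 14.8 CPM in GF replicate 3, and 129.7 and 96.6 CPM in SPF, so that GF replicate 3 held both kinds of transcript. Thus sex and group cannot be told apart in comparisons with SPF. The deposited tables also carry a date-like mark that differs between the groups and is shared within each, so a batch by that mark and the group cannot be told apart.

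H2-Q2, H2-T23 and H2-T3 made up most of the transcripts. On the TPM scale, which is per length and allows genes to be set side by side, these genes together held 82.6 to 88.7% of the summed TPM of the 10 genes in each library. H2-Q2 had a median of 361.5 TPM over the 6 libraries, H2-T23 252.5, H2-T3 116.6, H2-Q4 46.7 and H2-Q1 38.9 TPM. The other 5 were scarce, at 6.38 TPM for H2-Q10, 4.45 for H2-Q6, 3.61 for H2-Q7, 2.42 for H2-T10 and 0.82 for H2-T24. H2-Q2 exceeded H2-T23, and H2-T23 exceeded H2-T3, in 6 of 6 libraries. H2-Q4 exceeded H2-Q1 in 4 of 6 libraries with overlapping ranges, H2-Q10 exceeded H2-Q6 in 3 of 6 and H2-Q6 exceeded H2-Q7 in 3 of 6, so these neighbours were not separated. The ranges of neighbours did not overlap in 2 places, between H2-T23 and H2-T3 and between H2-Q1, at 20.7 to 93.1 TPM, and H2-Q10, at 3.84 to 19.4 TPM.

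RSEM assigns a read that fits several genes by estimate and gives a posterior standard deviation (SD) of each count. Of the 75-base windows of the annotated transcripts, 100% of those of H2-T3 and 99.5% of those of H2-T24 occurred in no other gene, and the posterior SD of both counts was 0 in every library. H2-T23 and H2-Q2 were also well resolved, with 94.1% and 91.9% unique windows and a posterior SD of at most 0.113% and 0.147% of the count. Unique windows made up 89.1% for H2-Q1, 87.5% for H2-Q10, 83.0% for H2-Q7, 79.5% for H2-Q4, 79.1% for H2-Q6 and 64.0% for H2-T10. Their largest posterior SDs were 0.852% of the count for H2-Q1, 2.31% for H2-Q10, 5.33% for H2-Q7, 0.232% for H2-Q4, 2.81% for H2-Q6 and 5.67% for H2-T10. The Qa-2 genes shared 197 windows with each other, and H2-Q7 shared 416 with H2-Q10. H2-T10 shared 581 windows with H2-T22 and 857 with BC023719, lies within Gm7030 on the same strand, and its count is the least certain of the 10. Annotated antisense genes overlap H2-Q4 (Gm11131), H2-T23 and H2-T24 (A930015D03Rik) and H2-T10 (BC023719). No strand setting is stated in the sources used, so reads from stretches that such pairs share may not be told apart. With both strands searched, H2-Q4 shared 348 windows with Gm11131, and H2-T10 857 with BC023719. A930015D03Rik was not among the genes that shared windows with H2-T24, nor among those that shared most with H2-T23. A930015D03Rik had 0 to 24.08 expected counts per library, beside 27 to 82 for H2-T24 and 3975 to 7163 for H2-T23.

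**Figure D1:**
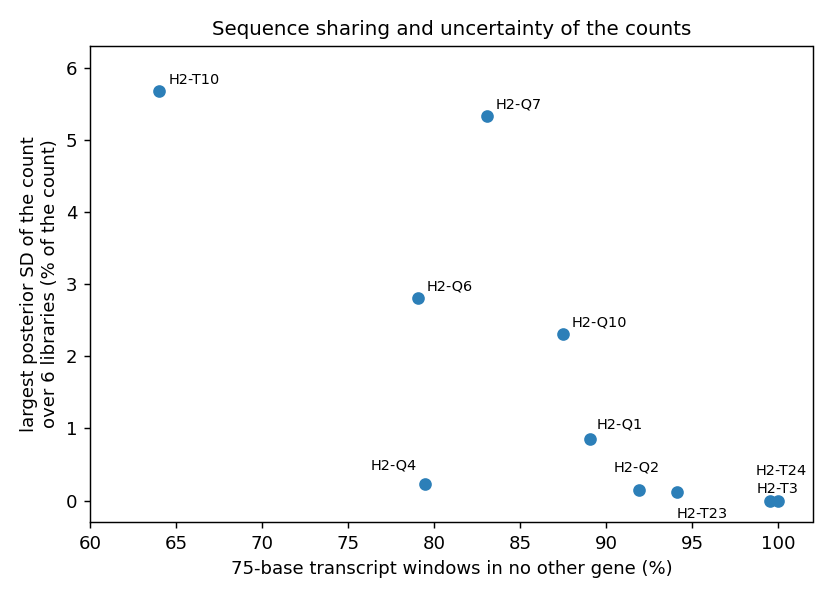
Share of 75-base transcript windows found in no other gene (x axis, %) against the largest posterior SD of the count over 6 libraries (y axis, % of the count), 1 point per gene. H2-T10 stands at 64.0% and 5.67%, and H2-T3 and H2-T24 at or near 100% with a posterior SD of 0.

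H2-Q10 stood apart from the other members. It had 24.7 and 29.2 CPM in the AF libraries, 6.78 and 7.85 CPM in the GF libraries, and 8.97 and 10.5 CPM in the SPF libraries. Both AF libraries were above all 4 others, and the GF libraries were below the SPF libraries. The log2 fold change was 1.88 ± 0.24 (SE) in AF versus GF, 3.69-fold, and 1.47 ± 0.23 in AF versus SPF, 2.76-fold. Neither passed edgeR's quasi-likelihood test after Benjamini-Hochberg adjustment over all genes, at adjusted p = 0.563 (unadjusted 0.000192) and adjusted p = 0.259 (unadjusted 0.000701). Both passed with DESeq2, at adjusted p = 1.04e-05 and 0.00144, a test that called 0.374% and 1.99% of all genes in these comparisons. In GF versus SPF the log2 fold change was -0.42 ± 0.23 with edgeR's adjusted p = 0.745. On the TPM scale H2-Q10 was 2.96 ± 0.72% of the summed TPM of the 10 genes in AF, 0.590 ± 0.126% in GF and 0.487 ± 0.116% in SPF libraries (SD, n = 2 each).

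The estimated transcripts of H2-Q10 and H2-Q7 differed as well. The effective length of H2-Q10, which RSEM averages over a gene's transcripts by their abundance, was 1427 and 1438 bases in AF, 1669 and 1715 bases in GF, and 1884 and 1749 bases in SPF libraries. That of H2-Q7 was also shortest in AF, at 1448 and 1261 bases, against 1536 and 1499 bases in GF and 1584 and 1773 bases in SPF libraries. H2-Q7, with which it shares windows, had 49.7 and 39.4 expected counts in AF libraries, far fewer than the 315 and 492 of H2-Q10, and posterior SDs of H2-Q10 there were 1.32 and 1.77 counts. The ratio of H2-Q10 to H2-Q7 in CPM was 6.34 and 12.5 in AF, 2.57 and 0.565 in GF replicates 1 and 3, and 0.513 and 1.10 in SPF replicates 3 and 4.

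**Figure D2:**
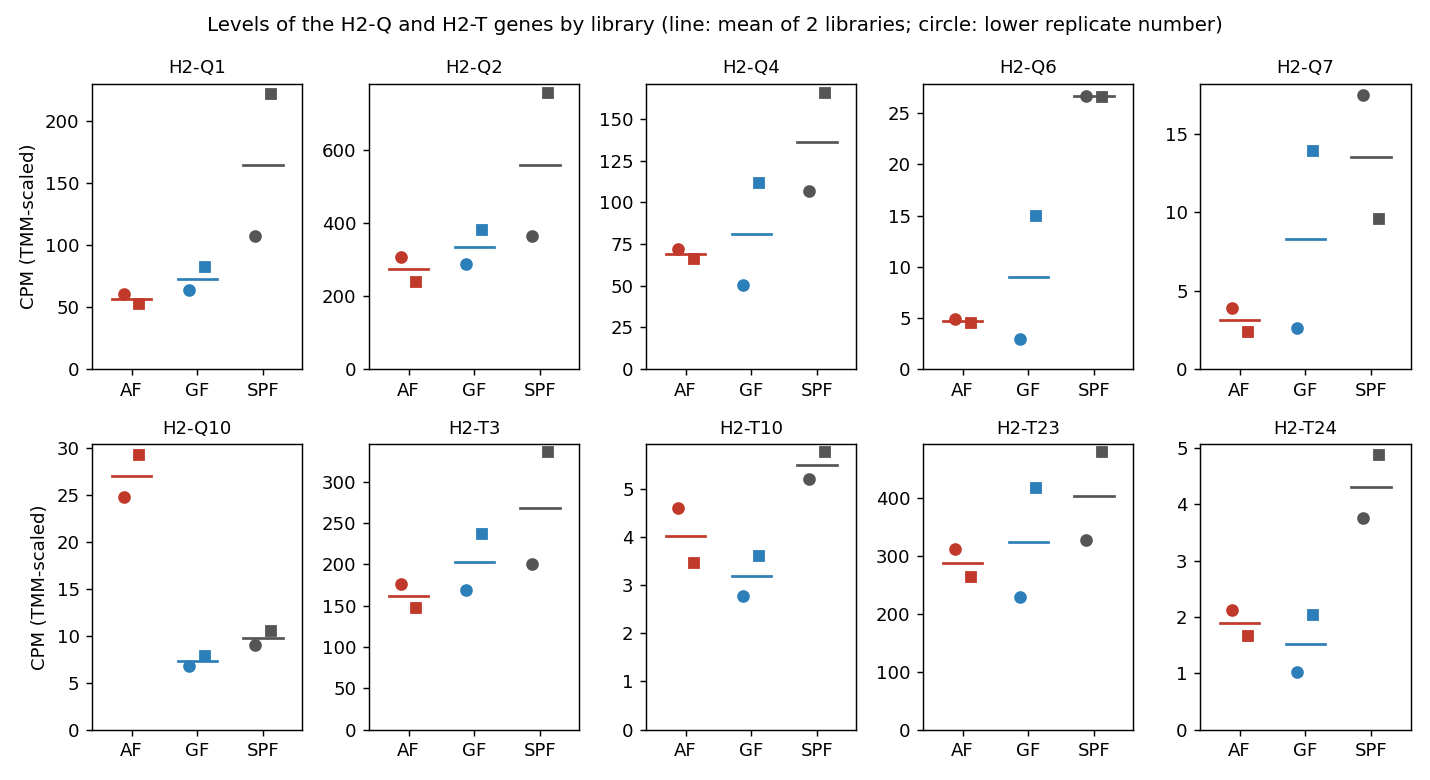
TMM-scaled CPM (y axis, from 0, its own scale for each gene) of the 10 members in AF, GF and SPF libraries, with a circle for the lower and a square for the higher replicate number and a line at the mean of 2 libraries. H2-Q10 is highest in AF at 24.7 and 29.2 CPM, whereas the 9 others have both AF libraries below both SPF libraries.

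The Qa-2 genes H2-Q6 and H2-Q7 had the lowest log2 fold changes of the members in AF versus SPF. H2-Q6 had 4.84 and 4.54 CPM in AF, 2.97 CPM in GF replicate 1, 14.9 CPM in GF replicate 3, and 26.7 and 26.6 CPM in SPF libraries. H2-Q7 had 3.90 and 2.34 CPM in AF, 2.64 and 13.9 CPM in GF, and 17.5 and 9.55 CPM in SPF libraries. AF libraries lay below SPF libraries for both genes, while the GF libraries were far apart, with replicate 1 near AF and replicate 3 several times higher. In AF versus SPF the log2 fold change was -2.51 ± 0.71 for H2-Q6 and -2.12 ± 0.81 for H2-Q7, at edgeR's adjusted p = 0.389 and 0.420. H2-Q6 passed with DESeq2 at adjusted p = 0.0235, and H2-Q7 did not, at adjusted p = 0.167. In GF versus SPF it was -1.59 ± 0.68 and -0.73 ± 0.77, and in AF versus GF -0.91 ± 0.69 and -1.40 ± 0.80, with edgeR's adjusted p from 0.738 to 1.00 in these 4 comparisons. Without GF replicate 3 both AF versus GF values turned positive, to 0.67 for H2-Q6 and 0.24 for H2-Q7, and without GF replicate 1 the GF versus SPF value of H2-Q7 was 0.033. For H2-Q6 this value was -0.84 if GF replicate 1 was left out and -3.18 if GF replicate 3 was.

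Lymphocytes also express Qa-2, and their markers were lower in AF than in SPF libraries, as these genes were. All 10 tested lymphocyte markers were lower in AF, with both AF libraries below both SPF libraries and below both GF libraries for each. Of all genes 22.6% were below in this way in AF versus SPF and 17.7% in AF versus GF. The markers' median log2 fold change was -2.90 in AF versus SPF and -3.15 in AF versus GF. All 10 were higher in GF versus SPF, with a median of 0.43 and overlapping libraries, where H2-Q6 and H2-Q7 had negative values. Of the 13 listed markers, 2 to 3 were at 0 in AF libraries, 1 to 2 in GF libraries and 0 to 1 in SPF libraries. H2-Q6 was as high in SPF replicate 4 as in SPF replicate 3, at 76.3 and 205 CPM of lymphocyte markers, and was lower in GF replicate 3, at 347 CPM. For H2-Q7 the nearest by pattern over the 6 libraries, among named genes of at least 5 CPM, was Ptprc, the CD45 surface protein of leukocytes. The part of lymphocyte RNA in the Qa-2 values was not tested, and in bulk samples fewer cells of a type and less RNA per cell cannot be told apart.

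**Figure D3:**
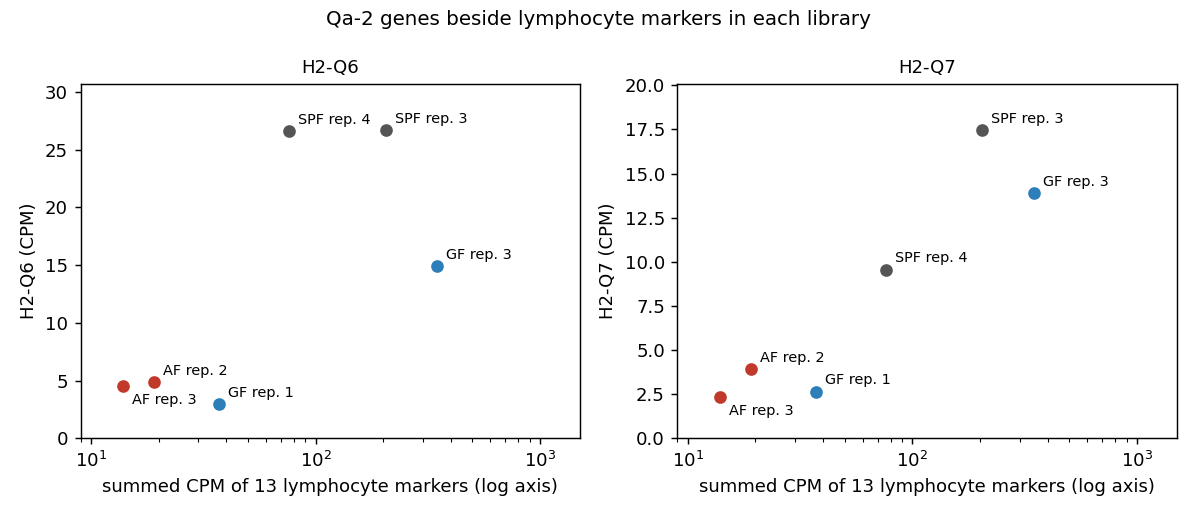
H2-Q6 (left) and H2-Q7 (right) in CPM (y axis, from 0) against the summed CPM of 13 lymphocyte markers (x axis, log), 1 point per library. GF replicate 3, with 347 CPM of markers, has 14.9 CPM of H2-Q6 and 13.9 CPM of H2-Q7, whereas GF replicate 1, with 37.3 CPM, has 2.97 and 2.64 CPM.

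H2-Q1 had 60.4 and 52.1 CPM in AF, 63.6 and 82.3 CPM in GF, and 107 and 222 CPM in SPF libraries. The 3 groups did not overlap, with AF lowest and SPF highest. Its log2 fold change was -1.55 ± 0.39 in AF versus SPF, -1.17 ± 0.38 in GF versus SPF and -0.38 ± 0.38 in AF versus GF, with edgeR's adjusted p = 0.381, 0.738 and 1.00. It passed with DESeq2 in AF versus SPF, at adjusted p = 0.0241. Without SPF replicate 3 it passed edgeR's test in AF versus SPF at adjusted p = 0.0256 and in GF versus SPF at adjusted p = 0.0449, with 4.37% and 2.58% of all genes called under this setting. SPF is then 1 library, the one poor in crypt markers, and is assumed to vary like the other groups. Without SPF replicate 4 the AF versus SPF value was -0.94.

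H2-Q2, the most abundant member, had 307 and 238 CPM in AF, 286 and 380 CPM in GF, and 363 and 755 CPM in SPF libraries. H2-Q4, whose product can be secreted, had 72.1 and 65.7 CPM in AF, 50.6 and 112 CPM in GF, and 107 and 166 CPM in SPF libraries. In CPM both were lower in the AF than in the SPF libraries without overlap, and the GF range reached into both. The AF versus SPF log2 fold change was -1.04 ± 0.43 for H2-Q2 and -0.98 ± 0.43 for H2-Q4, at edgeR's adjusted p = 0.441 and 0.454. In GF versus SPF both stood at -0.75, with SEs of 0.43 and 0.42. Without SPF replicate 4, H2-Q2 stood at -0.42 in AF versus SPF and -0.13 in GF versus SPF, and H2-Q4 at -0.64 and -0.41. In AF versus GF they stood at -0.29 ± 0.43 and -0.23 ± 0.42, and H2-Q4 stood at 0.45 without GF replicate 3.

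H2-T23, the Qa-1 gene, had 312 and 263 CPM in AF, 229 and 418 CPM in GF, and 328 and 480 CPM in SPF libraries. H2-T3, the thymus leukaemia antigen gene, had 177 and 147 CPM in AF, 170 and 237 CPM in GF, and 200 and 336 CPM in SPF libraries. For both genes AF lay below SPF without overlap, by margins that in CPM were small beside the spread within SPF. In TPM H2-T23 had 161 and 181 in AF and 337 and 305 in SPF libraries. H2-T3 had 66 and 72 TPM in AF and 140 and 148 TPM in SPF libraries. Those margins were wider than the spread within SPF. On the log2(TPM + 1) scale the median of all genes was itself -0.31 in AF versus SPF. The AF versus SPF log2 fold change was -0.49 ± 0.39 for H2-T23 and -0.73 ± 0.35 for H2-T3, at edgeR's adjusted p = 0.680 and 0.497. In GF versus SPF it was -0.32 ± 0.39 and -0.40 ± 0.35, and in AF versus GF -0.17 ± 0.39 and -0.33 ± 0.35. H2-T23 stood at 0.33 in AF versus GF without GF replicate 3 and at 0.042 in GF versus SPF without GF replicate 1, and H2-T3 at 0.019 in GF versus SPF without SPF replicate 4. These 2 genes, read almost without ambiguity, had among the smallest fold changes of the members. Fold changes did not follow certainty of the count. In AF versus SPF H2-T24, with a posterior SD of 0, stood at -1.19, and H2-T10, the least certain, at -0.45.

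H2-T24 had 27 and 28 counts in AF, 28 and 30 in GF, and 82 and 71 in SPF libraries. That is 2.12 and 1.66 CPM in AF, 1.02 and 2.04 CPM in GF, and 3.76 and 4.87 CPM in SPF, with both AF and GF below SPF. Its log2 fold change was -1.51 ± 0.51 in GF versus SPF and -1.19 ± 0.51 in AF versus SPF, at edgeR's adjusted p = 0.738 and 0.452. H2-T10, of which a product is known to be bound by some gamma delta T cells, had 4.59 and 3.46 CPM in AF, 2.78 and 3.60 CPM in GF, and 5.19 and 5.77 CPM in SPF libraries. Its values were -0.45 ± 0.37 in AF versus SPF and -0.78 ± 0.37 in GF versus SPF. In AF versus GF H2-T10 stood at 0.33 ± 0.37 and H2-T24 at 0.32 ± 0.52, and both signs turned on the TPM scale, as did that of H2-T24 without GF replicate 1, at -0.11.

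Across the members, 0 of 10 passed edgeR's quasi-likelihood test in any comparison. Over all 13644 genes the same rule called 0.0147% in AF versus GF, 0.044% in AF versus SPF, 0.0147% in GF versus SPF and 0.0293% among the 3 groups. At an unadjusted p below 0.05 there were 1 member in AF versus GF (H2-Q10), 4 in AF versus SPF (H2-Q10 higher, H2-Q1, H2-Q6 and H2-Q7 lower), 2 in GF versus SPF (H2-Q1 and H2-T24) and 4 among the groups. All genes gave 3.6%, 11.3%, 6.71% and 7.33% in these comparisons. DESeq2 called 1, 3, 0 and 2 members, in the same order, and 0.374%, 1.99%, 0.586% and 1.52% of all genes. Without SPF replicate 3 edgeR's test called 0, 1, 1 and 1 members, and 0.0629%, 4.37%, 2.58% and 0.95% of all genes.

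In AF versus SPF 9 of 10 members had both AF libraries below both SPF libraries, where 22.6% of all genes did, and 1 had both above, where 22% did. The members' median log2 fold change was -1.01, beside 0.01 over all genes. In GF versus SPF 5 of 10 had both GF libraries below, where 17.1% of all genes did, and 0 above, where 16.8% did, with a median of -0.75 beside 0.02. In AF versus GF 1 was below, H2-Q1, and 1 above, H2-Q10, where 17.7% and 15.8% of all genes were. The median there was -0.26 beside -0.02. These counts are in CPM and depend on the TMM factors, which ran from 0.791 to 1.41. In TPM both AF libraries were also below both GF libraries for H2-Q2, H2-Q4, H2-Q6, H2-Q7, H2-T3 and H2-T23. H2-Q10 was above there too, and H2-T10 and H2-T24 overlapped. The share of all genes apart in TPM was not counted. Their median in AF versus GF with log2(TPM + 1) was -0.36. AF versus SPF and GF versus SPF share the SPF libraries, and AF versus GF and AF versus SPF share the AF libraries, so these counts are not separate observations.

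**Figure D4:**
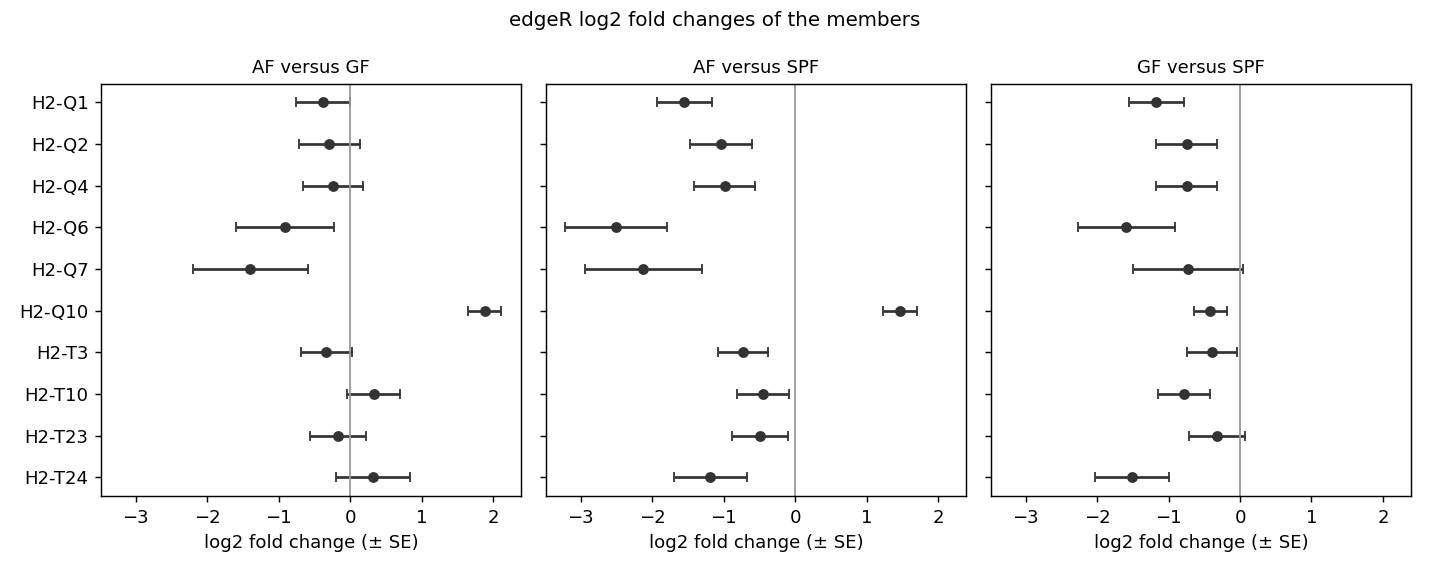
edgeR log2 fold changes (x axis) with SE for the 10 members in AF versus GF, AF versus SPF and GF versus SPF. H2-Q10 lies at 1.88 and 1.47 in the comparisons of AF, and in AF versus SPF the 9 others lie between -2.51 and -0.45.

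The partners of the heavy chains had negative log2 fold changes in AF versus SPF too, with 0 called by edgeR's quasi-likelihood test. Of the 9 genes of the light chain and peptide loading, 9 were lower in AF versus SPF, with a median log2 fold change of -0.51. Both AF libraries were below both SPF libraries for 5 of these 9, where 22.6% of all genes were. Calr, Canx, Erap1 and Pdia3 overlapped, at -0.17, -0.04, -0.28 and -0.37. B2m had 536 and 439 CPM in AF, 507 and 738 CPM in GF, and 754 and 1262 CPM in SPF libraries, at -1.05 ± 0.41 in AF versus SPF. The peptide transporter genes Tap1 and Tap2 stood at -1.42 ± 0.40 and -1.31 ± 0.41, and tapasin (Tapbp), which loads peptide, at -0.89 ± 0.31. All 5 immunoproteasome genes were lower, with a median of -0.65, and Psmb9, a catalytic subunit, stood at -1.30 ± 0.32. In AF versus GF the medians of these 2 lists were -0.41 and -0.40, with 9 of 9 and 5 of 5 lower, and in GF versus SPF -0.33 and -0.15, with 6 of 9 and 5 of 5 lower. Of all 13644 genes, 6701 were lower in AF versus SPF, 7214 in AF versus GF and 6569 in GF versus SPF.

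Nlrc5, the transactivator of class I genes, had 6.36 and 4.10 CPM in AF, 1.46 and 14.5 CPM in GF, and 23.9 and 40.1 CPM in SPF libraries. Its log2 fold change was -2.62 ± 0.97 in AF versus SPF, -2.03 ± 0.95 in GF versus SPF and -0.59 ± 0.95 in AF versus GF, with edgeR's adjusted p = 0.406, 0.738 and 1.00. Like H2-Q6 and H2-Q7, it was low in GF replicate 1 and higher in GF replicate 3. The other members, H2-K1, B2m and the summed lymphocyte markers were also higher in GF replicate 3 than in GF replicate 1. Of the 12 regulators 11 were lower in AF versus SPF, with a median of -0.45, and the interferon-linked factor Irf8 stood at -1.33 ± 0.30. Libraries did not overlap for 5 of the 12 below and 1 above, where 22.6% and 22% of all genes were so placed. Lower values numbered 11 of 12 in GF versus SPF, with a median of -0.62, and 4 of 12 in AF versus GF, with a median of 0.05. Of the 6 interferon receptor genes 6 were lower in AF versus SPF, with a median of -0.18, and Ifnlr1, a receptor chain for type III interferon, stood at -0.51 ± 0.40. Of these 6, 1 was below without overlap.

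The classical heavy chains had smaller log2 fold changes than the Qa-2 genes in AF versus SPF. H2-K1 had 1112 and 864 CPM in AF, 729 and 1333 CPM in GF, and 1240 and 2118 CPM in SPF libraries, at -0.77 ± 0.48 in AF versus SPF. H2-D1 stood at -0.96 ± 0.46 there. Both values lay between those of 2 other members, H2-Q2 at -1.04 and H2-T23 at -0.49. Of the 8 tested heavy chains outside the members 5 were lower in AF versus SPF, with a median of -0.65. H2-Q5, annotated as a polymorphic pseudogene and sharing 249 windows with H2-Q7, had the lowest value of them, at -2.64 ± 0.87. Of the 8 listed receptor genes 2 passed the filter, Cd8a at -2.43 ± 1.16 and Lag3 at 1.10 ± 0.75 in AF versus SPF, and Cd8a is also in the lymphocyte list. Differences between these genes and the members were not tested.

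The pattern of each member over the 6 libraries was compared with that of 8735 or 8736 genes of at least 5 CPM, as the root mean square difference of centred log2 CPM. Predicted genes and genes without a symbol were left out. The nearest to H2-Q6 were Zbp1 (0.18), Gbp6 (0.21) and Igtp (0.30), and to H2-Q7 Ptprc (0.32), H2-Q6 (0.48) and Ifi47 (0.49). Zbp1 is a sensor of nucleic acids, and Gbp6, Igtp and Ifi47 are interferon-induced GTPases. H2-Q4 was nearest to Smox (0.086), H2-D1 (0.091) and Parp14 (0.10), H2-T24 to Oasl2 (0.11), Oas3 (0.16) and Slc9a3 (0.16), and H2-T23 to Zc3h7a (0.061), Parp10 (0.074) and Trafd1 (0.088). H2-Q10 had none of the compared genes nearer than Myom3 (0.36), followed by Pmm1 (0.38) and Nenf (0.40). H2-Q2 was nearest to Mtmr4 (0.054), Aldh3b1 (0.059) and Sec14l2 (0.061), and H2-Q1 to Il13ra1 (0.079), Fam78a (0.094) and Slc36a1 (0.099). H2-T3 was nearest to Trim12c (0.075), Galns (0.076) and Zfp710 (0.080), and H2-T10 to Lrrc1 (0.085), Amigo3 (0.10) and Fbxl19 (0.11). Among the members themselves, the distance of H2-Q10 to H2-Q6 was 1.73 and to H2-Q7 1.70, and that of H2-Q6 to H2-Q7 was 0.48. All these distances share the same 6 libraries and are descriptions.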

How the data were processed

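RNA from sorted small intestinal epithelial cells was sequenced on a NextSeq instrument from TruSeq libraries, per the labels. Alignment and counting tools in the submitters' processing notes are RSEM, STAR (2.5.2b) and edgeR (3.16.5), with the build GRCm38/mm10. The sources used here state no RSEM version, annotation release or strand setting. The authors deposited RSEM expected counts and posterior mean counts per gene, TPM, effective lengths, and the posterior standard deviation of the count, used here as a score in counts, per the file headers.

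Symbols and coordinates came from GENCODE M21, which matched 51633 genes, and promoters from RefSeq. The members, lists and tests were chosen with earlier results of these data known. Expected counts were rounded, 23.5% of values above 0 not being whole (tolerance 0.005). edgeR 4.0.16 in R 4.3.3 was used for filterByExpr, TMM scaling and 1 quasi-likelihood fit of all 6 libraries, with 3 residual degrees of freedom and a biological coefficient of variation of 0.368. A call needed an adjusted p (Benjamini-Hochberg) below 0.05, tests being two-sided, and the SE is the absolute log2 fold change over the square root of F. The script was tested on simulated data. Libraries totalled 16109488 to 19417054 counts. Within groups the chi-square between libraries was 44.6 to 239 per gene, well above sampling noise, so none was a duplicate. Likeness used log2 CPM with a prior count of 2. All members were named, with B2m, H2-K1, H2-D1, Nlrc5, the genes of smallest p in each list (at most 3) and the 3 genes nearest each member other than predicted genes. H2-M3, H2-T22 and other genes of smallest p in AF versus GF and GF versus SPF are given only in the counts. A result that the rule would name is not reported here. MAFFT 7.526 and Biopython 1.88 made the alignments. Alternatives were DESeq2 1.42.0, edgeR's likelihood ratio test, other scalings and filters, limma 3.58.1 on log2 TPM with pseudocounts of 1 and 0.1, posterior mean counts, only the 2 groups compared, and each library left out.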

Additional observations from a re-analysis of the deposited data

How the results depend on the processing

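Of 510 alternative log2 fold changes of the members, 495 kept their direction, including all 170 in AF versus SPF. In AF versus GF, leaving out GF replicate 3 turned H2-Q4 to 0.45, H2-Q6 to 0.67, H2-Q7 to 0.24 and H2-T23 to 0.33, with -0.69, -1.67, -2.16 and -0.53 without GF replicate 1. H2-T24 ranged from -0.11 without GF replicate 1 to 0.88 without GF replicate 3. H2-T10 turned to -0.0028 with library totals alone, -0.0067 with log2(TPM + 1), with and without the filter, and -0.0094 with log2(TPM + 0.1), and H2-T24 to -0.028, with and without the filter, and -0.055 with these TPM scales. In GF versus SPF, H2-Q7 ranged from -2.37 to 0.033 and H2-T23 from -0.82 to 0.042, both turning without GF replicate 1, and H2-T3 from -0.73 to 0.019, turning without SPF replicate 4. The cause was not tested. Library totals alone moved the median of all genes to -0.38, -0.20 and 0.16 in AF versus GF, AF versus SPF and GF versus SPF, and log2(TPM + 1) to -0.36, -0.31 and 0.02.

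Against 0 members called by edgeR's quasi-likelihood test, DESeq2 called 1 in AF versus GF, 3 in AF versus SPF and 2 among the 3 groups, and edgeR's likelihood ratio test called 1, 3 and 2. The likelihood ratio test called 0.388%, 2.18% and 1.95% of all genes in these comparisons, and DESeq2 0.374%, 1.99% and 1.52%. With no low-count filter 1, 4, 2 and 4 members were called in AF versus GF, AF versus SPF, GF versus SPF and among the groups, with 1.16%, 3.53%, 2.13% and 4.12% of the 22763 genes tested called. Leaving out 1 library gave 0 in AF versus GF, and 0 to 1 in AF versus SPF, GF versus SPF and among the groups, the 1 always without SPF replicate 3, where the lone SPF library is assumed to vary like the others and 4.37%, 2.58% and 0.95% of all genes were called. The other scalings, the filter of 1 CPM, limma on TPM, posterior mean counts and only the 2 groups compared called 0. Over the alternatives the adjusted p of H2-Q10 ran from 1.04e-05 to 1 in AF versus GF and from 0.00144 to 1 in AF versus SPF, that of H2-Q1 in AF versus SPF from 0.000224 to 1, and that of H2-Q6 from 3.21e-09 to 1. Leaving out an AF library left 1 AF sample. No paired analysis was possible because the groups share fewer than 2 replicate numbers. Floors and posterior SDs cover counting and assignment error only, and H2-T24, at 27 to 82 counts, is the member most limited by depth.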
